A study of Zea mays with 32 samples.

Results

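These results concern 25 maize genes whose difference between the ninth and the fifth leaf ran in opposite directions in different landraces. RNA was measured in leaf primordia of Zea mays at plastochron stage 4, from plants of 8 native landraces: Jala, Palomero, Nal-tel, Gordo, Zapalote, Mushito, Reventador and Tabloncillo. The series was deposited for work on the genetics of vein density in maize leaves. Each landrace gave 2 libraries of the ninth leaf, labelled V9, and 2 of the fifth leaf, labelled V5, so that 16 groups and 32 libraries were compared. All groups shared growth at 35 °C, with the treatment given as heat. The labels do not say whether a library came from 1 plant or from a pool, so the p-values below measure the spread between libraries, which may be technical.

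Landraces are traditional maize varieties that farmers maintain by open pollination, so that plants of the same landrace can differ in their alleles. Leaves that form early on a maize shoot are juvenile and later ones adult, and the types differ in wax, hairs and cell walls. A plastochron is the time between the start of successive leaves, and a primordium at the stage sampled is still enclosed in older leaves while its veins are being laid down.

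The genes were chosen from a deposited table of normalized counts, taken as log2(value + 1). Genes entered if their mean over the 32 libraries reached 100. A landrace was counted up where both values of the ninth leaf exceeded both values of the fifth leaf and the mean difference was at least 1, which is 2-fold, and counted down in the reverse case. A gene was kept with at least 2 landraces up and at least 2 down among 7 landraces. Tabloncillo was left out of that step. Of 39756 genes listed, 19936 had the mean required, and 25 of these were kept, a share of 0.125%. The leaf differences in the 7 landraces chose the genes and are therefore given as a description, and no test of them is used as support.

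The table names its genes by ID, and 0 of these IDs matched the RefSeq table for the B73 assembly that was at hand. The genes are therefore given by ID, with no name, function or position. Library depth, as recovered reads, ranged from 54.8 to 121.0 M (median 66.0 M). A gene is called at the floor in a library where it had no more than 3 reads. Of the 25 genes 13 had at least 1 library at the floor and 12 had none. Replicate libraries of these genes lay far apart: 44% of their group pairs differed by at least 1 on the log2 scale, against 6.61% over all genes with the mean required. The part of this spread in the results below was not tested. The leaves carry different series of library names, so any batch effect cannot be told apart from the leaf, nor can plant stage.

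Most genes counted in any landrace were counted in one direction. Among the 19936 genes, 753 were counted up in at least 2 landraces and down in none, 636 were counted down in at least 2 and up in none, and 426 had at least 1 landrace in each direction. No landrace was counted in 16331 genes. Of the 25 genes kept, 19 had 2 landraces up and 2 down, 5 had 2 up and 3 down, and 1 had 3 up and 2 down. Averaged over the 7 landraces their leaf difference lay between -0.57 and 0.36 on the log2 scale, with a median of -0.07. The 25 genes and 7 landraces make 175 values, of which 51 were counted up and 55 down. Of the remaining 69 values 56 had overlapping leaves and 13 had leaves that did not overlap but differed by less than 2-fold.

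**Figure D1:**
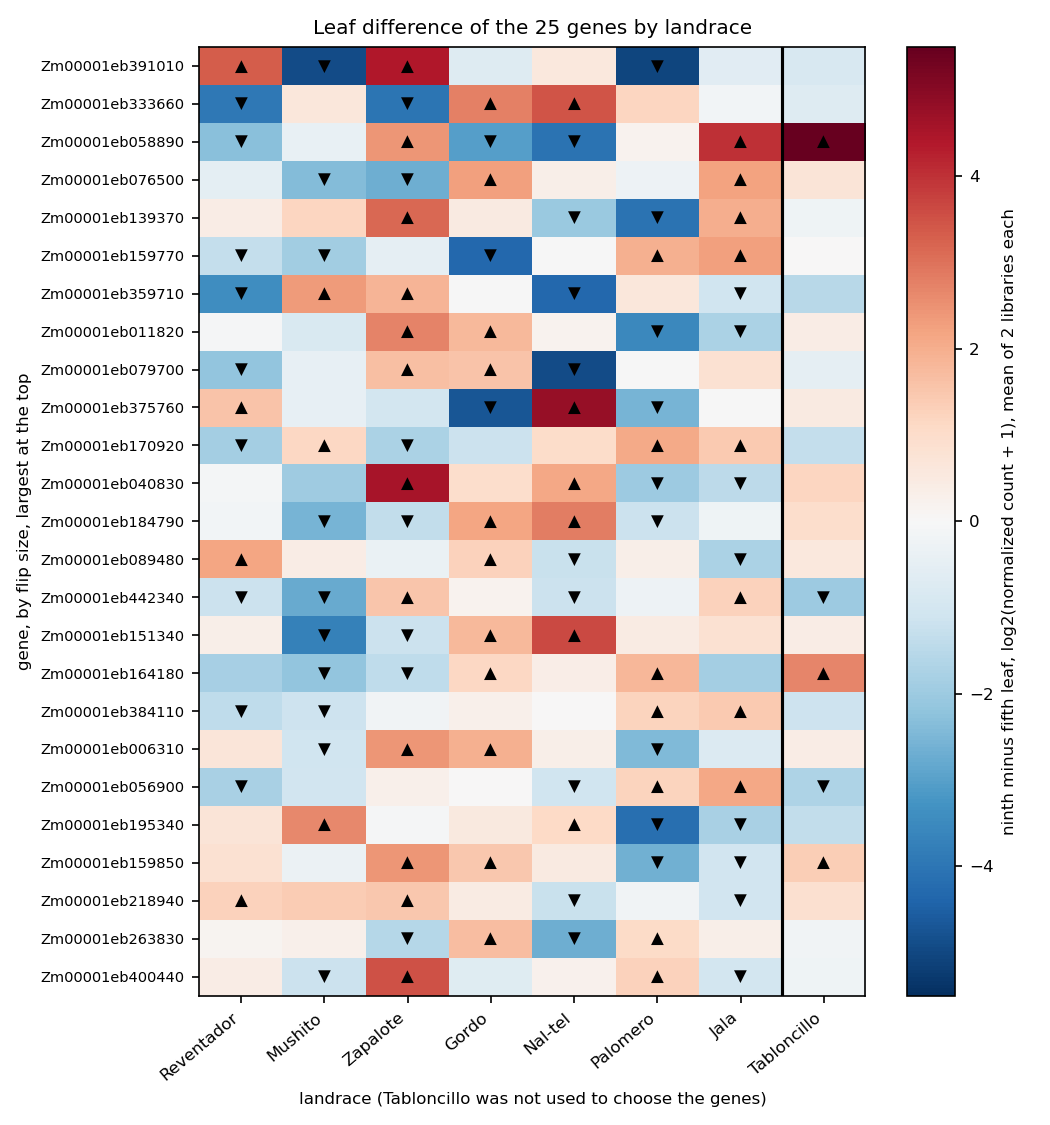
Colour gives the ninth minus the fifth leaf on the log2(normalized count + 1) scale (mean of 2 libraries each) for 25 genes in rows and 8 landraces in columns. Triangles pointing up or down mark landraces counted up (51 values left of the line) or down (55), and the column right of the line is Tabloncillo, which was not used to choose the genes.

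The size of a flip was taken as the smaller of the second largest rise and the second largest fall of a gene. It ran from 1.00 to 3.32 with a median of 1.37 on the log2 scale, was at least 2 in 4 genes and under 1.2 in 11.

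Zm00001eb391010 had the largest flip, 3.32. In Reventador its ninth leaf held 313 and 220.1 normalized counts, against 32.7 and 19.6 in the fifth leaf. Zapalote pointed the same way, with 4.59 and 78.1 in the ninth leaf and 0 in both libraries of the fifth. Mushito had the opposite order, with 0 in both libraries of the ninth leaf and 57.7 and 14.4 in the fifth. In Palomero the ninth leaf held 0 and 155 normalized counts and the fifth leaf 390.2 and 429.6. The leaves did not overlap in any of these 4 landraces, and they did overlap in Gordo, Nal-tel and Jala. Jala, at 223 and 520.3 in the ninth leaf and 794 and 355 in the fifth, was the highest landrace of this gene by its mean over both leaves.

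Zm00001eb333660, with a flip size of 2.78, was counted down in Zapalote, where the ninth leaf held 235 and 61.6 normalized counts and the fifth leaf 2123 and 1830.3. It was also counted down in Reventador, at 1.996 and 0 in the ninth leaf and 58.4 and 10.9 in the fifth. Gordo was counted up, with 141 and 646 in the ninth leaf against 21.7 and 84.5 in the fifth. Nal-tel was counted up as well, with 126 and 207 in the ninth leaf against 67.7 and 2.19 in the fifth. The landraces counted down thus included both the highest values of this gene in the fifth leaf and a library at 0 in the ninth. In Mushito, Palomero and Jala the leaves overlapped at levels from 95.9 to 1032.

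Zm00001eb058890, at 2.45, was counted down in 3 landraces. Nal-tel had 8.33 and 3.32 normalized counts in the ninth leaf and 104 and 103 in the fifth, the largest fall of this gene. In Gordo the ninth leaf stood at 3.89 and 1.98 against 28.3 and 33.0 in the fifth, and in Reventador at 1.996 and 3.88 against 35.0 and 8.73. Zapalote ran the other way, with 45.9 and 59.6 in the ninth leaf and 10.5 and 7.29 in the fifth. Jala was counted up too, but by 1 library: its ninth leaf held 2.20 and 228, against 0 and 1.80 in the fifth. In reads these were 2 and 176 against 0 and 2, so the lower ninth leaf library was at the floor. Without this value the gene did not meet the rule. Mushito and Palomero had high and overlapping leaves, between 286 and 764.

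Zm00001eb076500, at 2.21, was counted up in Gordo and Jala and down in Mushito and Zapalote. Jala had 278 and 32.4 normalized counts in the ninth leaf against 15.8 and 25.1 in the fifth. Zapalote had 102 and 8.22 in the ninth leaf against 137 and 289 in the fifth. Replicates of the ninth leaf lay more than 8-fold apart in both landraces, and the leaves stayed apart all the same.

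**Figure D2:**
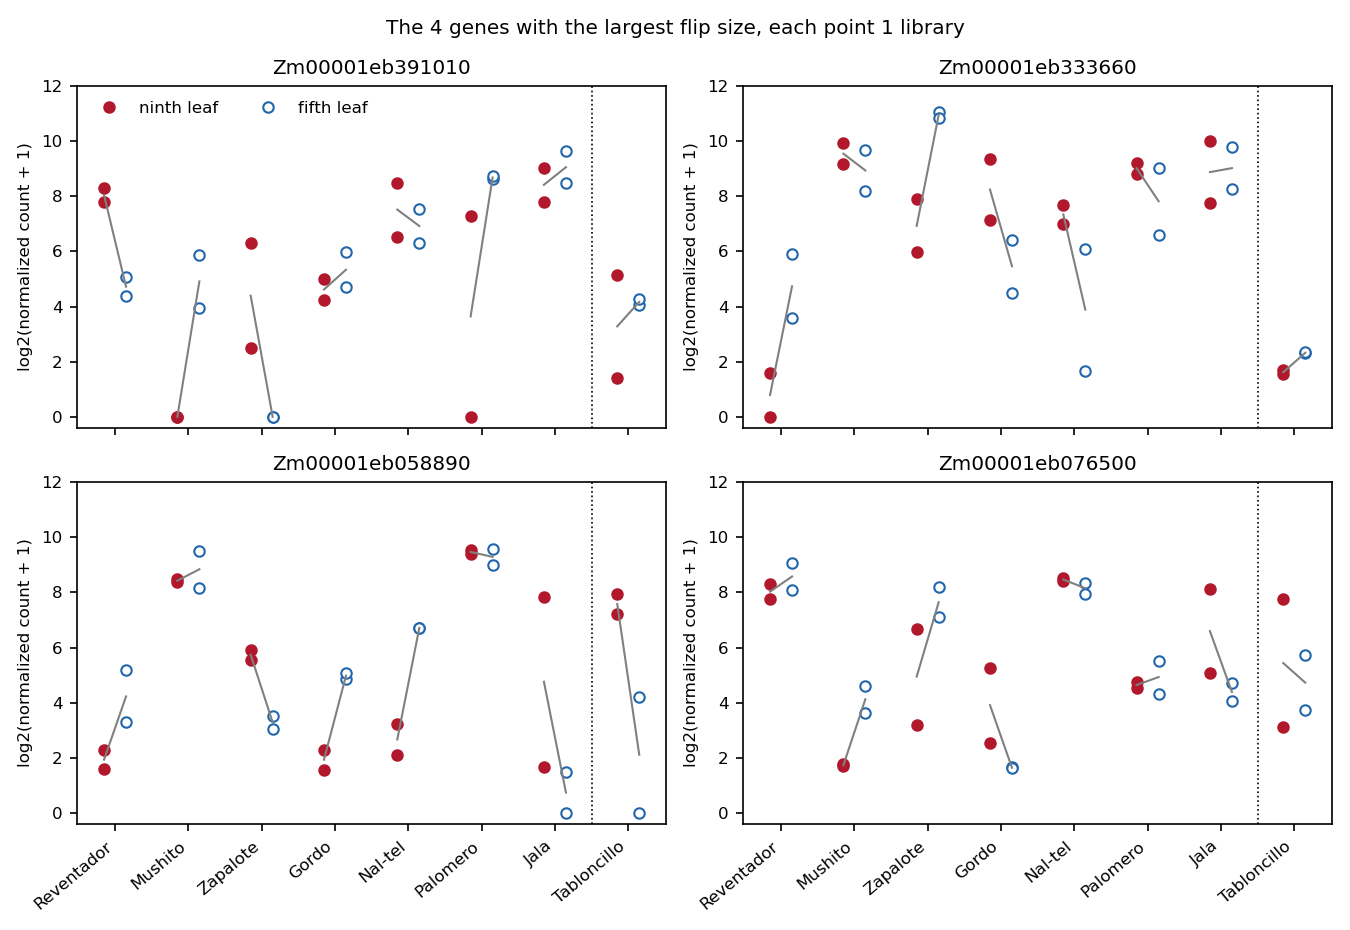
Each point is 1 library, as log2(normalized count + 1), for the 4 genes with the largest flips (ninth leaf filled, the fifth leaf open), and grey lines join the means of the leaves. Lines slope both ways within a panel, as in Zm00001eb391010 from 313 and 220.1 against 32.7 and 19.6 in Reventador to 0 and 0 against 57.7 and 14.4 in Mushito, and Tabloncillo right of the dotted line did not enter the choice.

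Landraces differed in how often they were counted. Zapalote was counted in the most genes, up in 12 and down in 7 of 25, where 2.91% and 2.53% of all 19936 genes were counted up and down. Gordo was mostly counted up, in 11 genes against 3 down (2.77% and 1.82% of all genes). Mushito was mostly counted down, in 10 genes against 3 up (3.16% and 3.09%), and so was Reventador, with 9 down and 4 up (3.17% and 2.8%). Nal-tel had 9 down and 6 up (2.08% and 1.58%), Palomero 9 down and 7 up (2.49% and 3.47%) and Jala 8 in each direction (1.75% down and 2.62% up). The rule used these contrasts, so nothing is read from the counts beside these shares.

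The pairs of landraces most often set against each other were Zapalote with Nal-tel and Zapalote with Palomero. Each had opposite directions in 9 of the 25 genes and the same direction in 2. Reventador and Jala were opposite in 8 genes and alike in 1. Palomero and Jala went together, with the same direction in 8 genes and opposite ones in 2. Over all 19936 genes, pairs of landraces mostly shared directions. Zapalote and Nal-tel were opposite in 51 genes and alike in 207, and Zapalote and Palomero were opposite in 48 and alike in 318. Reventador and Jala were opposite in 50 and alike in 249, and Palomero and Jala were opposite in 20 and alike in 385. The rule asks for landraces in opposite directions, so nothing is read from the counts in the 25 genes beside these.

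The gene with the largest difference varied by landrace, where rises and falls are ranked among the values counted, whose leaves do not overlap. In Palomero the largest fall was that of Zm00001eb391010, by 5.04 on the log2(value + 1) scale, and the largest rise that of Zm00001eb170920, at 2.06 (133 and 117 normalized counts in the ninth leaf, 39.7 and 21.2 in the fifth). Nal-tel had its largest fall in Zm00001eb079700, with 2.08 and 43.1 in the ninth leaf and 394 and 308 in the fifth, a difference of -4.90. Its largest rise was in Zm00001eb375760, with 151 and 4.15 in the ninth leaf and 0 in both libraries of the fifth leaf, a difference of 4.81. Gordo had its largest fall in that same gene, with 280.3 and 0 in the ninth leaf and 597 and 322 in the fifth, a difference of -4.71. In each of these the leaves stood apart, but in Zm00001eb391010 in Palomero, and in Zm00001eb375760 in both landraces, the replicates of the ninth leaf were further apart than the means of the leaves. Zm00001eb375760 was at the floor in 19 libraries. Its other counted values, Reventador (up) and Palomero (down), had a library of the higher leaf at the floor, and without them it did not meet the rule.

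In Zapalote the largest rise was in Zm00001eb040830, at 11.5 and 117 normalized counts in the ninth leaf and 1.75 and 0 in the fifth, a difference of 4.53. Mushito had its largest rise in Zm00001eb195340, at 91.7 and 118 in the ninth leaf and 2.84 and 74.2 in the fifth, a difference of 2.63 that is smaller than the gap between the replicates of the fifth leaf. Jala had its largest counted fall in the same gene, at 50.6 and 162 in the ninth leaf and 327 and 311 in the fifth, a difference of -1.80. The largest counted fall was smaller in Jala than in any other of the 7 landraces, and its largest rise, 4.02 in Zm00001eb058890, rested on 1 library.

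Further genes of the set, named after their values were seen, had flip sizes from 1.06 to 1.99. Zm00001eb139370, at 1.99, was counted down in Palomero, at 2.36 and 2.45 normalized counts in the ninth leaf against 207 and 14.8 in the fifth. It was counted up in Zapalote, at 567 and 1956 in the ninth leaf against 47.3 and 282 in the fifth. Jala was counted up at 6.60 and 10.4 against 4.51 and 0, so that counted landraces had very different levels.

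Zm00001eb159770 was counted down in Gordo, with 17.5 and 13.9 normalized counts in the ninth leaf and 161 and 663 in the fifth. Jala was counted up, with 628 and 405 in the ninth leaf and 202 and 53.0 in the fifth. No library of this gene was at the floor. Zm00001eb359710 had 12 libraries at the floor: it was counted down in Nal-tel on 0 and 228 in the ninth leaf against 273 and 326 in the fifth. It was counted up in Mushito, at 104 and 211 in the ninth leaf against 7.56 and 98.9 in the fifth.

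Zm00001eb164180 was above the floor in all libraries. Its ninth leaf held 371 and 470.0 normalized counts in Palomero, against 104 and 128 in the fifth. In Mushito the ninth leaf held 203 and 69.2, against 622 and 466 in the fifth. The other landraces counted among the 7, Zapalote (down) and Gordo (up), reached at most 46.2 in either leaf.

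The flips of Zm00001eb089480, Zm00001eb384110 and Zm00001eb218940 were smaller, the least of them 1.06. Zm00001eb089480 had close replicates in Nal-tel, at 87.5 and 83.8 in the ninth leaf against 189 and 209 in the fifth, and it was counted up in Gordo, at 252 and 342 against 88.0 and 169. Zm00001eb384110 was counted up in Jala, at 365 and 913 in the ninth leaf against 226 and 199 in the fifth, and down in Reventador, at 75.8 and 79.5 against 388 and 111. Zm00001eb218940 was counted up in Zapalote, at 119 and 160.2 in the ninth leaf against 56.1 and 43.8 in the fifth. Jala had the reverse, at 84.7 and 59.7 against 195 and 115.

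Low counts carried some of the values. In 18 of the 106 values counted, both libraries of the lower leaf were at the floor, and such differences depend on the pseudocount and are no bounds. In 5 values, in 4 genes, a library of the higher leaf was at the floor too: Zm00001eb079700 in Zapalote had 2.29 and 2.05 normalized counts in the ninth leaf and 0 in both libraries of the fifth. With such values left uncounted, a choice made after seeing the data, 21 of the 25 genes stayed. The 4 genes that left were Zm00001eb058890, Zm00001eb079700, Zm00001eb359710 and Zm00001eb375760. Without a minimum difference of 2-fold 1938 genes met the rule, and with a minimum of 1.5 on the log2 scale 10 did.

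At the edge of the rule, Zm00001eb400440 and Zm00001eb263830 were just inside, with flip sizes of 1.00 and 1.05. In Zm00001eb400440 the second fall was that of Jala, with 83.6 and 44.1 normalized counts in the ninth leaf and 158 and 95.2 in the fifth. Zm00001eb097590 and Zm00001eb040650 were just outside, each with a flip size of 0.99.

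Whether the same genes differ between landraces in their level was asked over both leaves together. This contrast was not used to choose them. Most of the genes had very different levels in different landraces. For 21 of the 25 the gap between the highest and the lowest landrace was larger than their largest leaf difference. Tabloncillo was included in that gap but not in the leaf difference, which was taken over the 7 landraces of the rule. The share of the 19936 genes with a gap larger than the leaf difference is not given here, so nothing is read from the 21. By limma's moderated F-test with 7 degrees of freedom, 23 of the 25 genes differed between landraces at an adjusted p under 0.05, where 40.5% of the 26156 genes tested and 38.5% of the 19936 genes with the required mean did so. The gap between the highest and the lowest landrace had a median of 4.60 on the log2 scale and ran from 1.42 to 9.33, against a median of 0.53 over the 19936 genes. A gap of at least 2 was found in 23 of the 25 genes and in 1822 of the 19936. A mean of 100 can be reached through a few landraces with high values, so the count is a description of these genes. The same 23 genes passed with edgeR and with DESeq2 on recovered reads, which called 40.3% and 53.1% of all genes.

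Zm00001eb184790 had the smallest p-value (limma adjusted p = 5.11e-11). Its highest landrace was Reventador, with 554 and 434 normalized counts in the ninth leaf and 686 and 439.8 in the fifth. Jala, with 235 and 311 in the ninth leaf and 306 and 329 in the fifth, and Zapalote, with 168 and 172 in the ninth leaf and 399 and 484 in the fifth, came next and overlapped each other, and the fifth leaf of Zapalote reached into the range of Reventador. The other landraces were far lower, from 33.2 in Tabloncillo to 0 in Mushito and Nal-tel. Of the 5 landraces counted, Zapalote alone was a high one. Gordo was counted up, with 29.2 and 19.8 in the ninth leaf and 3.26 and 6.18 in the fifth, as was Nal-tel, at 7.29 and 4.98 against 0 in both libraries of the fifth. Mushito was counted down, with 0 in both libraries of the ninth leaf and 5.67 and 4.12 in the fifth, and so were Palomero, at 3.54 and 2.45 against 14.3 and 4.24, and Zapalote.

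Zm00001eb079700 followed (limma adjusted p = 2.62e-08). Palomero was highest, at 360.1 and 419.7 normalized counts in the ninth leaf and 437 and 359.6 in the fifth, and there the leaves overlapped. Mushito stood next, with 221 and 153 in the ninth leaf and 288 and 213 in the fifth, below the range of Palomero. Jala was lowest, with 2.20 and 0 in the ninth leaf and 0 in both libraries of the fifth, close to Zapalote. Nal-tel spanned nearly the whole range between its leaves, with 2.08 and 43.1 in the ninth leaf against 394 and 308 in the fifth, and Gordo was counted up, at 217 and 133 against 63.0 and 49.5.

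The genes that did not pass were Zm00001eb056900 (limma adjusted p = 0.375) and Zm00001eb442340 (limma adjusted p = 0.715). Their landrace levels spanned 1.48 and 1.42 on the log2 scale, the narrowest of the 25. In Zm00001eb442340 Zapalote had 199.7 and 598 normalized counts in the ninth leaf against 112 and 126 in the fifth, while Mushito had 38.6 and 169.8 against 1641 and 188.

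**Figure D3:**
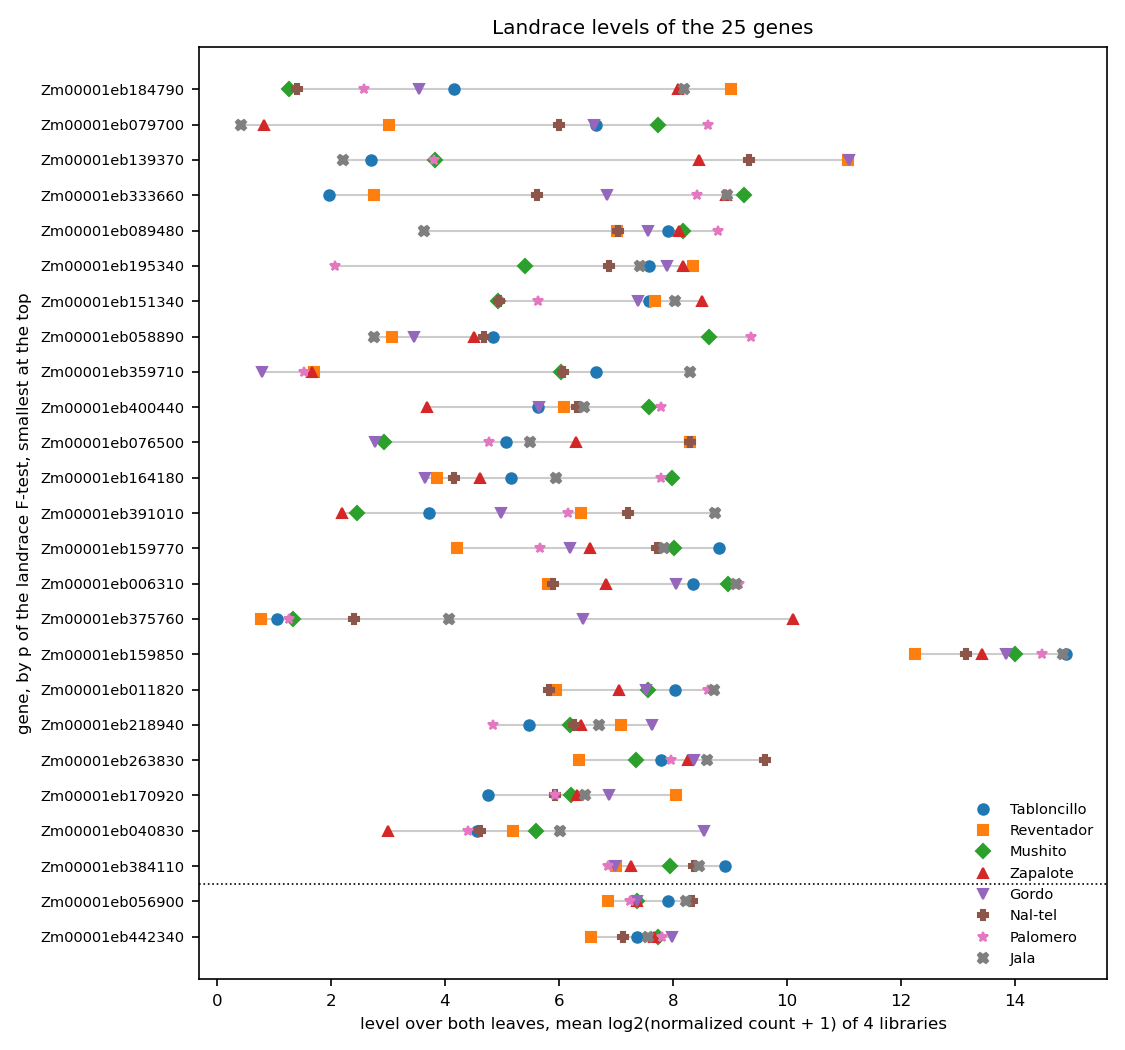
Each marker is the mean log2(normalized count + 1) of the 4 libraries of 1 landrace, the ninth and the fifth leaf together, for 25 genes in order of their p in the landrace F-test. Grey lines join the highest and the lowest landrace, with a median length of 4.60, and the 2 genes under the dotted line did not pass.

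Highest levels were spread over all landraces. Palomero was highest in 5 of the 25 genes, Gordo in 4, Tabloncillo, Reventador, Nal-tel and Jala in 3 each, and Mushito and Zapalote in 2 each. Reventador was lowest in 7 genes, more than any other landrace. How often each landrace was highest or lowest over all genes is not given here, so nothing is read from these counts. The level over 8 landraces in the ninth leaf correlated with that in the fifth leaf at a median r of 0.45 over the 25 genes, against 0.32 over the 19936. These correlations are descriptions over 8 landraces.

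The spread over landraces was also taken within each leaf. The SD over the 7 landraces of the rule was larger in the ninth leaf in 11 genes and in the fifth leaf in 14. Its medians were 1.93 in the ninth and 1.97 in the fifth leaf on the log2 scale. These libraries chose the genes, and the share over all genes is not given here, so nothing is read from the counts. Single genes were less even. In Zm00001eb170920 the SD was 0.61 in the ninth leaf and 1.44 in the fifth, so that ninth leaf levels were close together. In Zm00001eb195340 it was 2.98 in the ninth leaf and 1.87 in the fifth, where 0 in both ninth leaf libraries of Palomero stood out.

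Few of the 25 genes were alike among themselves. Over 300 pairs of the 25 genes, the correlation of log2 values in 32 libraries ran from -0.81 to 0.91 (median r -0.02), and 4 pairs were above 0.7. The genes in these pairs were picked after their values were seen. Zm00001eb006310, Zm00001eb011820 and Zm00001eb159850 made up 3 of these pairs, with r of 0.91, 0.88 and 0.83. They were counted up in Zapalote and Gordo and down in Palomero, and in Jala or Mushito as well. Deviations of the libraries from their group means also ran together in them, with r of 0.84, 0.68 and 0.60, so that the likeness held between replicates too. In groups of 2 libraries the deviations mirror each other, so these r rest on fewer independent values than 32. Why these genes ran together was not tested, so these values describe the libraries.

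Zm00001eb159850 was the most abundantly counted of the 25, with a mean of 21567 normalized counts, where gene length is not taken into account. Palomero had 8142 and 10376 in the ninth leaf and 54049 and 59825 in the fifth. Jala pointed the same way, with 26618 and 15538 in the ninth leaf and 50312 and 36017 in the fifth. Zapalote had the opposite order, with 28301 and 23095 in the ninth leaf and 6913 and 3196 in the fifth, and so had Gordo, with 21990.4 and 27082 against 4288 and 18071. None of these values is near the floor. In Mushito the replicates lay far apart, at 22461 and 9527 in the ninth leaf and 7519 and 45475 in the fifth. The SD over 7 landraces was 0.76 in the ninth leaf and 1.54 in the fifth.

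Zm00001eb011820 repeated this order at lower counts. Palomero had 56.7 and 228 in the ninth leaf against 1359 and 1309 in the fifth, and Jala 361 and 148 against 887 and 673. Zapalote had 477 and 244 in the ninth leaf against 75.4 and 34.0 in the fifth, and Gordo 364 and 319 against 52.2 and 183. In Mushito, again, the second library of the fifth leaf was high, at 604, against 104 in the first. Among 19935 other genes with the required mean, 41 correlated with Zm00001eb159850 above 0.8, 32 with Zm00001eb006310 and 24 with Zm00001eb011820, while 11 of the 25 genes had no such partner. The share of all genes without such a partner, or of all gene pairs above 0.7, was not taken, so these counts are descriptions.

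The remaining pair was Zm00001eb151340 with Zm00001eb184790, at r of 0.77. Their deviations from group means correlated less, at r of 0.25. Both were counted up in Gordo and Nal-tel and down in Mushito and Zapalote. Zm00001eb151340 had 145 and 82.1 normalized counts in the ninth leaf of Nal-tel against 2.22 and 23.0 in the fifth. In Mushito its ninth leaf held 12.1 and 4.47, against 77.5 and 157 in the fifth. Zm00001eb159770 and Zm00001eb159850 are the closest by place in the table, 7 rows apart, and they were not alike: r was 0.13, and 3 landraces were counted in opposite directions.

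**Figure D4:**
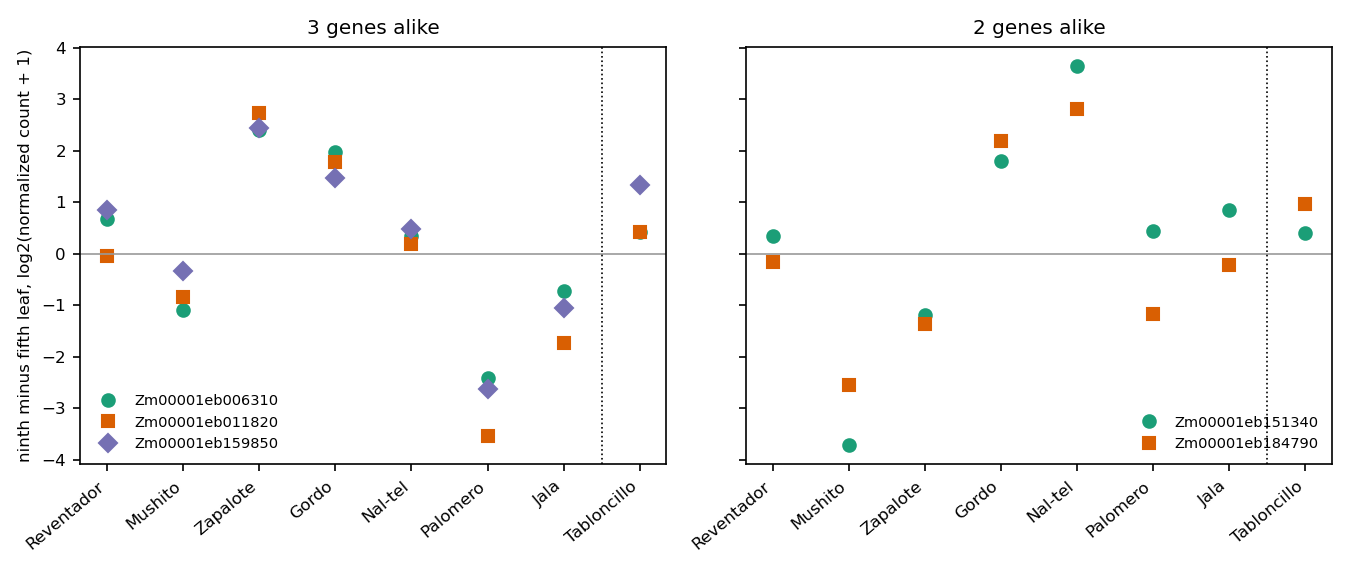
Ninth minus the fifth leaf on the log2(normalized count + 1) scale (mean of 2 libraries each) by landrace, for the genes that correlated above 0.7 over 32 libraries. The 3 genes on the left lie above 0 in Zapalote and Gordo and below 0 in Palomero and Jala, and the 2 on the right lie above 0 in Gordo and Nal-tel and below 0 in Mushito and Zapalote.

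Tabloncillo had no part in the choice of direction, so its leaf difference is a measure the rule did not use, apart from the filter on the mean. By limma no gene of the 25 differed between its leaves at an adjusted p under 0.05, where 0.21% of 26156 genes did, and 2 of the 25 had an unadjusted p under 0.05. On recovered reads edgeR likewise called 0, where it called 0.0306% of all genes, with 3 of the 25 at an unadjusted p under 0.05. DESeq2 called 1 of 25, where it called 4.27% of the genes it gave an adjusted p, with 4 at an unadjusted p under 0.05. The share of all genes at an unadjusted p under 0.05 is not given here, so nothing is read from those counts. The differences were 13 above and 12 below 0, with a median of 0.03 over the 25 genes and of -0.01 over the 19936. Their absolute size had a median of 0.89, against 0.26 over the 19936 genes. Replicates over all landraces also lay further apart in the 25 genes, with a median gap of 0.92 against 0.21. The part of this spread in the Tabloncillo sizes and counts was not tested. The leaves did not overlap in 7 of the 25 genes, where 41.9% of all genes with the required mean had leaves that did not overlap. By the 2-fold rule Tabloncillo would be counted up in 3 of these genes and down in 2 (2.61% and 2.9% of all genes). These were Zm00001eb058890, Zm00001eb164180 and Zm00001eb159850 up, and Zm00001eb442340 and Zm00001eb056900 down.

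Zm00001eb058890 had the largest rise in Tabloncillo, with 147 and 246 normalized counts in the ninth leaf and 17.7 and 0 in the fifth. Both values of the ninth leaf lay above both of the fifth. The log2 difference was 5.47 (SE 1.33, limma adjusted p = 0.0665). DESeq2 called this gene (log2 difference 4.47, DESeq2 adjusted p = 0.00729). Without either ninth leaf library of Jala, where this gene stood at 2.20 and 228, limma called it too (adjusted p = 0.0244 and 0.0245). Over all alternatives its adjusted p ran from 0.00729 to 0.646 (limma, edgeR or DESeq2).

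Zm00001eb442340 had the largest fall in Tabloncillo, with 46.1 and 146 normalized counts in the ninth leaf and 275 and 399 in the fifth. Here too the leaves did not overlap, and the log2 difference was -1.997 (SE 1.08, limma adjusted p = 0.347). Replicates in Tabloncillo lay apart in other genes. In Zm00001eb006310 the ninth leaf held 211 and 668 and the fifth leaf 1031 and 76.4, and in Zm00001eb040830 the ninth leaf held 2.25 and 382 and the fifth leaf 17.7 and 12.2.

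**Figure D5:**
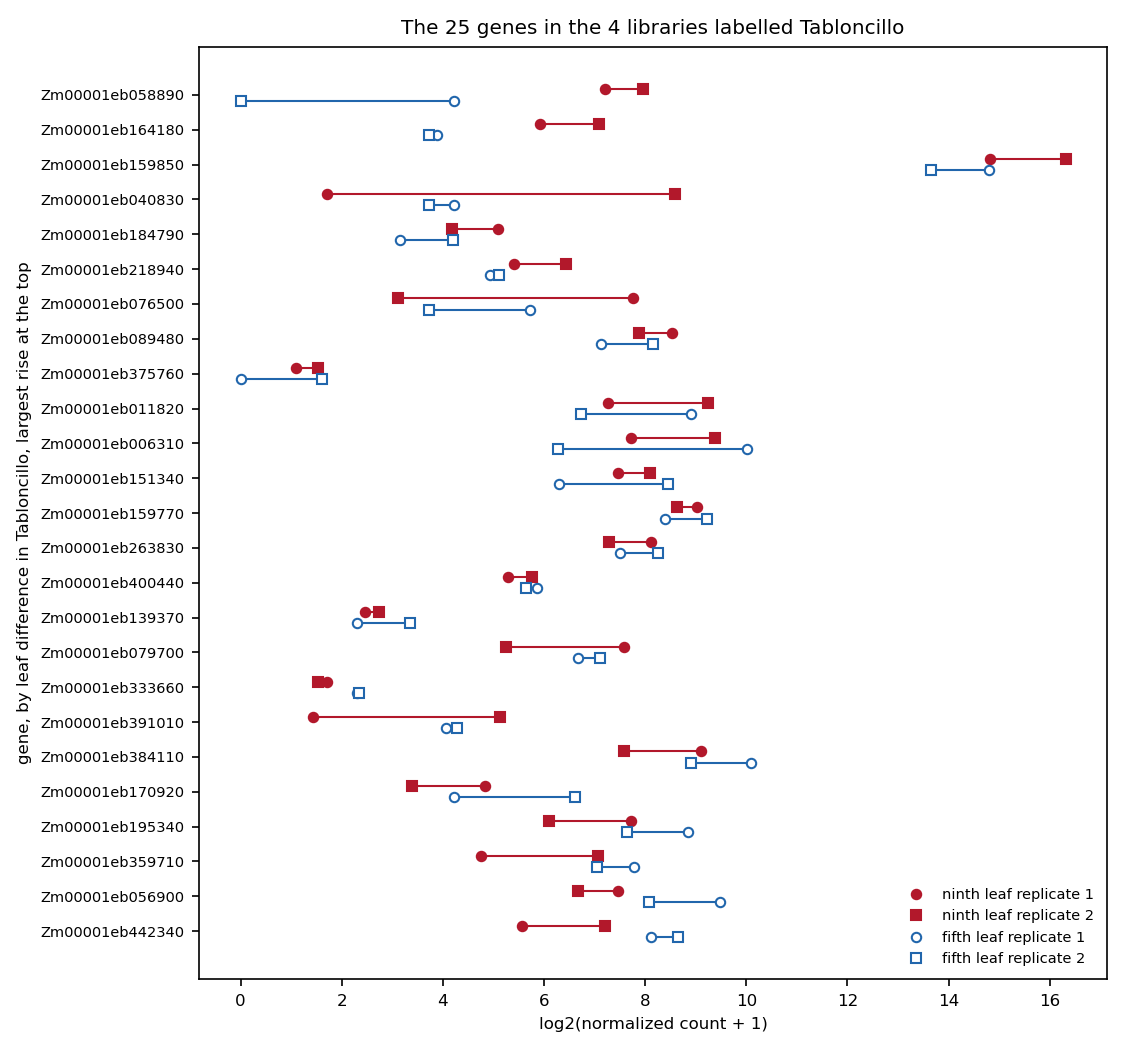
Values of the 25 genes in the 4 libraries labelled Tabloncillo as log2(normalized count + 1), ninth leaf filled and the fifth leaf open, circles for replicate 1 and squares for replicate 2, with lines joining replicates. The leaves overlap in 18 of the 25 genes, and Zm00001eb058890 at the top has the largest difference, 147 and 246 against 17.7 and 0.

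Whether the leaf difference is unequal among the 8 landraces restates the contrast that chose the genes, so the following counts lend no support to the choice. By limma's interaction F-test 1 of the 25 genes passed an adjusted p of 0.05, where 0.0612% of 26156 genes did. That count was 0 at a pseudocount of 10, with genes tested from a mean of 100, and with the replicate block, and it ran from 0 to 3 with 1 library left out. With edgeR it was 0, where 0 of all genes passed. At an unadjusted p under 0.05 there were 20 of the 25 with edgeR and 17 with limma. The share of all genes at that limit is not given here, and nothing is read from these counts.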

How the data were processed

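Per the labels' protocols, directional poly(A) libraries were made from column-purified RNA. STAR, featureCounts and DESeq2 are named in the submitters' processing notes; genome build and annotation are not given in the sources used here. The authors deposited normalized counts, a signal in which library depth is scaled out. In all 32 libraries 100% of values were whole multiples of 1 step (tolerance 0.01 of a step), and dividing by it gave whole reads.

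The 25 genes, the tests and the rule for named genes were chosen with earlier results of these data known. Named are the 4 largest flips, the largest rise and fall in each landrace, the 2 smallest p for level, the largest rise and fall in Tabloncillo, and the 2 genes on each side of the threshold; all others were named after their values were seen. Gene lists planned by symbol were not used, since no ID had a name.

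limma 3.58.1 in R 4.3.3 was fitted to log2(value + 1) for the 26156 genes whose mean reached 10, as 16 group means with a trended eBayes prior. Benjamini-Hochberg adjustment ran over all 26156. Recovered reads went to DESeq2 1.42.0 and to edgeR 4.0.16 (TMM, quasi-likelihood). The limma tests of landrace level and of the leaf difference in Tabloncillo were tried on simulated counts first. The interaction F-test was not. Python 3.11.15 did the rest. Replicate numbers were not used as pairs. The count that asks the higher leaf to be above the floor was chosen after seeing the data.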

Additional observations from a re-analysis of the deposited data

Results flagged for a closer look

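By construction all 25 genes have landraces in which every ninth leaf library lies on one side of the fifth leaf and landraces in which it lies on the other. The 4 with the largest flips were Zm00001eb391010 (3.32), Zm00001eb333660 (2.78), Zm00001eb058890 (2.45) and Zm00001eb076500 (2.21), on the log2 scale. Zm00001eb058890 was not kept where values with a library of the higher leaf at the floor were left uncounted. The difference between landraces chose these genes, so no independent test of it can be given. In limma's interaction F-test, which restates the choice, their adjusted p ran from 0.117 to 0.389 and none of the 4 passed. Groups held 2 libraries, too few to look for a library that stands apart.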

How the results depend on the processing

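The number of genes kept was 25. It was 27 at a pseudocount of 0.1, 17 at 10, and 30 after quantile normalization; the 17 were all among the 25, and the 27 and the 30 held all 25. It was 38 with a mean of at least 50, 3 with a mean of at least 500, 10 with a difference of at least 1.5, 1938 with no minimum difference, 115 with overlap allowed, 50 with Tabloncillo counted and 0 with at least 3 landraces in each direction. Wider or narrower criteria give more or fewer genes by construction. Leaving out 1 library at a time gave 22 to 46 genes, of which 18 to 25 were among the 25. It gave 38 without the fifth leaf replicate 2 of Mushito, 45 without the fifth leaf replicate 2 of Zapalote and 46 without the ninth leaf replicate 1 of Zapalote. In every such run 1 leaf is left with a single library, which has no replicate to overlap. Why the counts differed between runs was not tested.

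The 23 genes that differed between landraces were 21 without Tabloncillo and 22 or 23 without any 1 library, and 23 in the other settings. In Tabloncillo the count of 0 became 1 under DESeq2 and ran from 0 to 1 without 1 library, and the cause was not tested. With replicate number as a block these counts were 23 and 0, and the interaction count of 1 became 0. Same-numbered libraries deviated together with r from -0.18 to 0.11, over 0.1 in 1 of 8 landraces, so the numbers were not used as pairs. Such values cannot tell whether these libraries shared a plant or a batch.

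Groups of 2 libraries and reads at or under 3 in 13 of the 25 genes limit what these data can resolve. Gene lists by name and marker checks of the tissue label were not run, since the IDs had no names.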
